A study of Mus musculus with 6 samples.

Results

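The receptor genes of the IL-6, IL-12 and IL-1 cytokine families were followed in CD4+ T cells from the spleens of colitic mice. The 10 genes were chosen by name: Il6ra, Il6st, Il12rb1, Il12rb2, Il23r, Il27ra, Il18r1, Il18rap, Il1r1 and Il1rl1. All 10 were found among 54532 listed genes, and all 10 passed the filter on low counts that left 15138 genes for testing. The animals were wild-type C57BL/6J mice that drank dextran sulfate sodium (DSS), which injures the colon and causes colitis, and were given either Akkermansia muciniphila, a mucin-degrading gut bacterium, or phosphate-buffered saline (PBS) each day. Each group had 3 libraries of poly(A) RNA. Nothing in the labels says that the libraries of a group came from separate animals, so p-values measure the spread between these libraries, which may be technical. DSS was common to both groups, and no mice without colitis enter the comparison. The study asks how the bacterium alters the transcriptome of these cells during colitis. In the sample descriptions, library 1 of either group is called CD4+, library 2 CD5+ and library 3 CD6+, whereas the cell type entry of every library is CD4+. The age of the mice, the doses and the isolation method are not stated there.

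These genes encode the chains through which a T cell senses inflammatory cytokines. IL-6 binds the chain encoded by Il6ra and signals through gp130, encoded by Il6st, which also serves IL-27 together with the product of Il27ra. IL-12 uses the products of Il12rb1 and Il12rb2, and IL-23 uses those of Il12rb1 and Il23r. These receptors work through JAK kinases and STAT factors, chiefly STAT3 for IL-6 and IL-23 and STAT4 for IL-12. The IL-18 receptor (Il18r1 and Il18rap), the IL-1 receptor (Il1r1) and the IL-33 receptor ST2 (Il1rl1) belong to the IL-1 receptor family and signal through MyD88 to NF-kB. In CD4+ T cells IL-12 and IL-18 favour Th1 responses, IL-6, IL-23 and IL-1 favour Th17 responses, and IL-33 acts on Th2 and regulatory T cells. Counts per gene do not separate membrane-bound from soluble receptor forms.

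The libraries held 15032257 to 16677923 counts. Of 10 CD4 T cell markers, all tested, 3 were higher with Akkermansia (Cd4, Cd5 and Cd3e) and 1 lower (Cd28). Of all tested genes 7.32% were called higher and 8.28% lower, the background for each marker count in this paragraph. Over the 16 alternative fits described below, the call was lost in 7 for Cd3e, 6 for Cd5, 1 for Cd4 and 0 for Cd28. Cd4 itself reached 883.6 ± 29.6 CPM (counts normalised to library size) in the Akkermansia group, against 688 ± 31.9 CPM in the PBS group (SD, n = 3 each). All 10 B cell markers were higher with Akkermansia (summed 364 to 507 CPM, against 164 to 186 CPM with PBS), as were both CD8 T cell markers (61.3 to 93.4 CPM, against 19.1 to 20.2 CPM). Of 8 NK cell and innate lymphoid markers 4 were higher (summed 80.2 to 99.7 CPM, against 61.6 to 75.4 CPM). Of the 7 tested neutrophil markers 2 were higher, as were 1 of 9 monocyte or macrophage markers (479 to 512 CPM, against 380 to 452 CPM) and 3 of 7 dendritic cell markers (35.7 to 41.2 CPM, against 16.4 to 24.1 CPM). The count of dendritic cell markers called higher was 1 to 2 when any single library was left out. The plasma cell markers summed to 555 to 715 CPM with Akkermansia, against 190.5 to 334 CPM with PBS. Of the 4 tested 1 was lower (Xbp1), while Igha (461 ± 75.1 CPM with Akkermansia, 112 ± 55.9 CPM with PBS; adjusted p = 0.0568) and Jchain (112 ± 14.9 CPM with Akkermansia, 58.4 ± 21.9 CPM with PBS; adjusted p = 0.146) did not pass, with Akkermansia above PBS without overlap in both. Of the endothelial or stromal markers only Pecam1 was tested. Each marker of the B cell, CD8 and NK cell lists had counts in some library. Their part in the receptor values was not tested, and in bulk RNA fewer cells of a type cannot be told apart from less RNA per cell.

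None of the 10 receptor genes passed the test between Akkermansia and PBS. By edgeR's quasi-likelihood test, with p adjusted by Benjamini-Hochberg across the 15138 genes, 0 members were higher and 0 lower, where 7.32% of all tested genes were higher, 8.28% lower and 15.6% either. At an unadjusted p under 0.05, 4 of 10 members were higher (Il6ra, Il18r1, Il27ra and Il6st) and 0 lower. Of all tested genes 14.2% were higher at that threshold, 15.8% lower and 30.1% either. DESeq2 called 1 member higher (Il6ra) and limma-voom called 0, each with 4 members at an unadjusted p under 0.05. The median log2 fold change of the members was 0.22, beside -0.01 over all tested genes, and 8 of 10 members lay above 0 (49% of all tested genes), a count that was 6 when libraries were scaled to the T cell receptor complex genes Cd3d, Cd3e and Cd3g. That scaling moved the median of all genes by -0.18, and under it 0 members had an unadjusted p under 0.05. The count of members called was 3 without PBS 3, where 2530 of 15496 tested genes were called in either direction. It was 1 without PBS 1, where 1473 of 15494 were called.

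**Figure D1:**
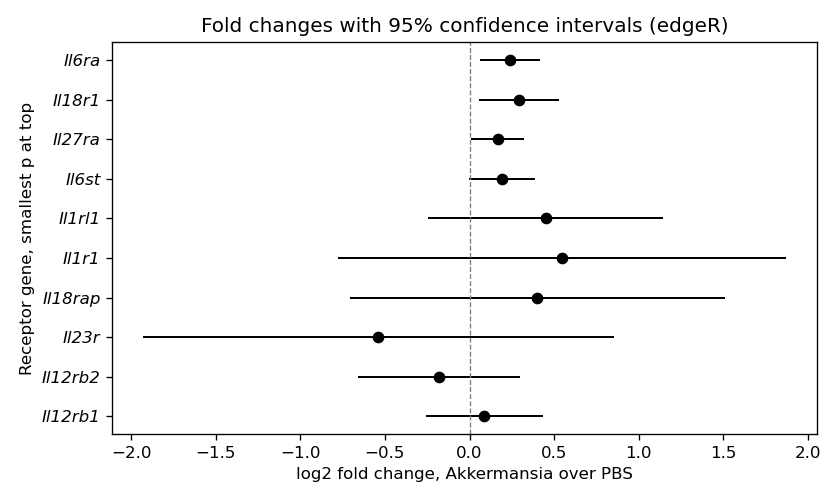
Log2 fold change of each receptor gene, Akkermansia over PBS (x axis), with its 95% confidence interval as a line, genes ordered by p from the top. The intervals of Il6ra, Il18r1, Il27ra and Il6st lie above 0 but are narrow and close to it, and those of Il23r, Il1r1 and Il18rap are wide; the intervals are not adjusted for the number of genes.

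Levels per length, in the authors' FPKM, placed the receptors over a wide range. Il27ra was the most abundant member (73.2 to 90.9 FPKM over the 6 libraries), at percentile 96.8 of the tested genes. Il6ra (31.9 to 44.0 FPKM), Il6st (28.5 to 40.0 FPKM) and Il18r1 (20.4 to 29.6 FPKM) followed. The ranges of Il6ra and Il6st overlapped, as did those of Il6st and Il18r1, although Il6st exceeded Il18r1 within all 6 libraries. Il18rap (4.14 to 11.4 FPKM) and Il12rb1 (5.94 to 9.55 FPKM) overlapped with each other and lay below Il18r1 without overlap. The lowest were Il12rb2 (1.09 to 1.63 FPKM), Il1r1 (0.47 to 1.88 FPKM), Il1rl1 (0.62 to 1.63 FPKM) and Il23r (0.08 to 0.85 FPKM), each of whose ranges overlapped that of its neighbour in the order. Il6ra, Il6st and Il27ra varied by 1.24 to 1.41 times between the lowest and the highest library, whereas Il23r varied 10.6-fold and Il1r1 4-fold.

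**Figure D2:**
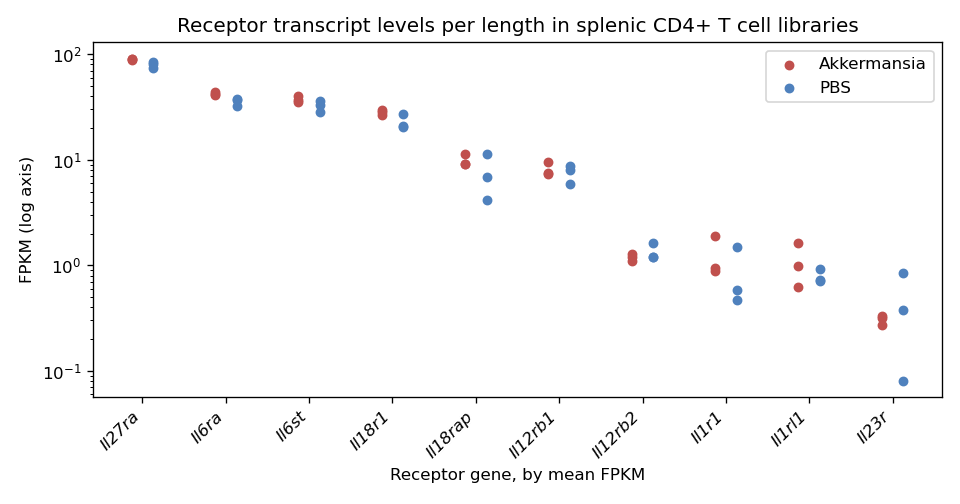
Authors' FPKM of the 10 receptor genes in each library (log axis), genes ordered by mean level, Akkermansia libraries left of PBS libraries at each gene. Il27ra stands above all others and Il23r is lowest, with the 2 groups intermingled at most genes.

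Il6ra, the ligand-binding chain for IL-6, came closest to the threshold. It had 354, 380.3 and 357 CPM in Akkermansia libraries 1 to 3, against 319, 275 and 331 CPM in PBS libraries 1 to 3. All 3 Akkermansia libraries lay above all 3 PBS libraries. The mean was 364 ± 14.3 CPM in the Akkermansia group, against 308.5 ± 29.4 CPM in the PBS group (SD, n = 3 each), a log2 fold change of 0.24 ± 0.08 (SE) with a 95% interval of 0.07 to 0.41 (edgeR adjusted p = 0.0597). The interval corresponds to folds of 1.05 to 1.33. The call depended on the settings: the adjusted p was 0.0348 with DESeq2, 0.0489 with RLE size factors, 0.0429 with library totals, 0.00821 with no filter on low counts and 0.0253 without PBS 3. With scaling to the Cd3 genes the log2 fold change was 0.06 (adjusted p = 0.756).

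Il6st, which encodes the shared signalling chain gp130, had 445, 388 and 407 CPM with Akkermansia, against 319.9, 363 and 402 CPM with PBS. The groups overlapped, since PBS 3 exceeded Akkermansia 2. Its log2 fold change was 0.19 ± 0.09 (SE; 95% interval 0.003 to 0.38; edgeR adjusted p = 0.159), with a call only without PBS 3 (0.28, adjusted p = 0.0379) and with no filter on low counts (0.0414), and with scaling to the Cd3 genes the value was 0.01. Il27ra, the IL-27 binding chain that pairs with gp130, had 313, 318 and 306 CPM with Akkermansia, against 259, 282 and 295 CPM with PBS. The groups did not overlap, but the log2 fold change of 0.17 ± 0.07 (SE; 95% interval 0.01 to 0.32) did not pass (edgeR adjusted p = 0.129). In 2 of the 10 members, Il6ra and Il27ra, the groups did not overlap, with Akkermansia above PBS in both. Over all tested genes the groups did not overlap in 34.9%, with Akkermansia above in 17.1% and below in 17.8%. With scaling to the Cd3 genes the value of Il27ra was -0.01.

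Ratios between chains of 1 receptor were compared per length. The FPKM ratio of Il6ra to Il6st was 1.02, 1.26 and 1.13 with Akkermansia, against 1.28, 0.974 and 1.06 with PBS. The ratio of Il27ra to Il6st was 2.23, 2.60 and 2.39 with Akkermansia, against 2.57, 2.47 and 2.33 with PBS. The groups overlapped in both ratios (exact permutation test, two-sided, p = 0.8 for each; the smallest p that 3 against 3 libraries allow is 0.1). Of 6 ratios compared between the groups, all overlapped, with exact permutation p from 0.3 to 0.9 and a value of 0.9 for each after adjustment over the 6. Since no difference could pass at this number of libraries, the tests do not show that the ratios are alike. Those of Il23r to Il12rb1 (0.0112 to 0.145 over the 6 libraries) and of Il1rl1 to Il1rap (0.362 to 1.11) varied widely.

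**Figure D3:**
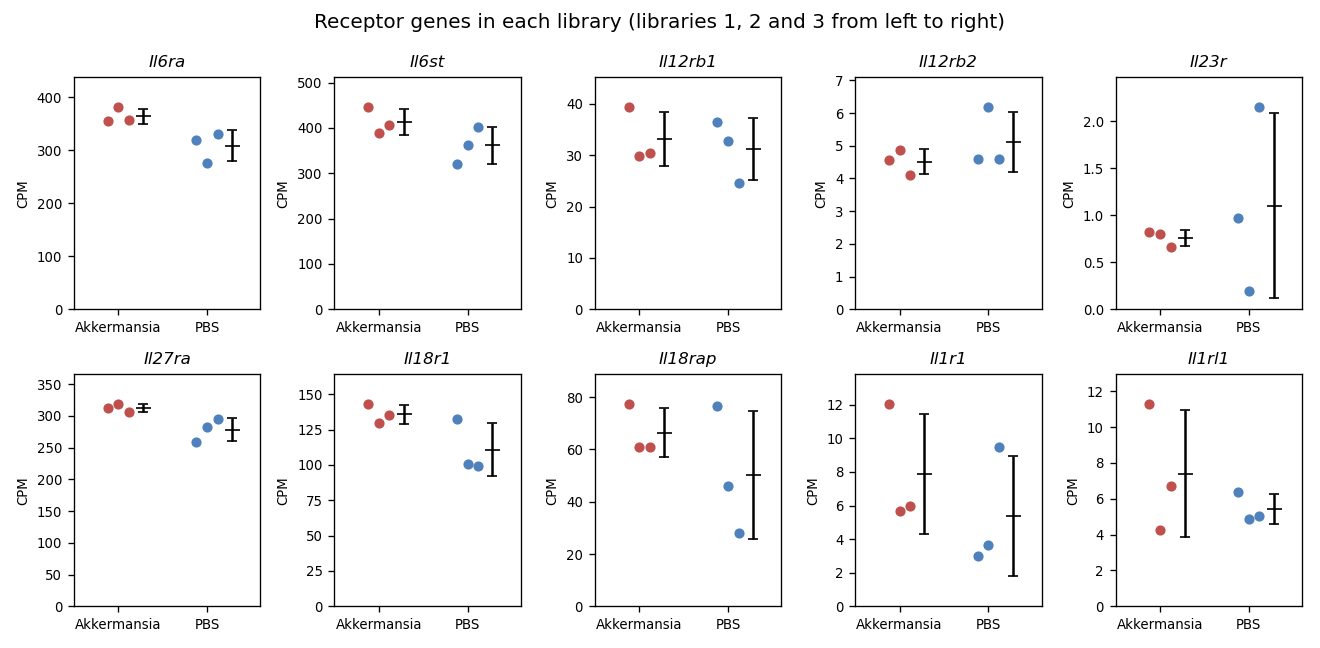
CPM of the 10 receptor genes, with a point per library (1, 2 and 3 from left to right), the Akkermansia group left of the PBS group and the mean with its SD beside the points. Il6ra and Il27ra show groups that do not overlap, while the spread within groups is widest for Il23r, Il1r1, Il18rap and Il1rl1.

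Il12rb1, the chain shared by the IL-12 and IL-23 receptors, had 39.3, 29.9 and 30.5 CPM with Akkermansia, against 36.4, 32.8 and 24.6 CPM with PBS. The library numbered 1 was the highest in each group and PBS 3 the lowest of all. Its log2 fold change was 0.09 ± 0.15 (SE; 95% interval -0.25 to 0.43; edgeR adjusted p = 0.754), and its sign turned without Akkermansia 1 (-0.05), without PBS 3 (-0.06) and with scaling to the Cd3 genes (-0.08). Il12rb2, the IL-12 chain that recruits STAT4, had 4.55, 4.87 and 4.11 CPM with Akkermansia, against 4.59, 6.17 and 4.60 CPM with PBS. Only PBS 2 stood above the other libraries (log2 fold change -0.18 ± 0.22, SE; 95% interval -0.66 to 0.29; edgeR adjusted p = 0.635). Per length, Il12rb2 amounted to 0.127, 0.177 and 0.147 of Il12rb1 with Akkermansia, against 0.138, 0.204 and 0.203 with PBS (exact permutation p = 0.3), so the shared chain was the more abundant one in every library.

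Il23r, the IL-23 specific chain of Th17 and innate-like lymphocytes, was detected on few counts: 13, 12 and 10 with Akkermansia, against 16, 3 and 35 with PBS. PBS 2 lay at the detection floor of 3 counts, which is 0.181 to 0.2 CPM depending on the library. PBS 3 held the most Il23r counts and PBS 2 the fewest, with the Akkermansia libraries between them. The log2 fold change of -0.54 ± 0.64 (SE) had a 95% interval of -1.92 to 0.85 (edgeR adjusted p = 0.625) and was 0.37 without PBS 3. The coefficient of variation was 11.4% over the Akkermansia libraries and 89% over the PBS libraries. At counts of 10 to 13 counting error is large, so 11.4% does not show that the Akkermansia libraries are alike. The log2 fold change was -0.03 by limma-voom and -0.10 on log2(FPKM + 0.1).

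Both chains of the IL-18 receptor were highest in Akkermansia 1 and lowest in PBS 3. Il18r1, the IL-18 binding chain, had 143, 129 and 135 CPM with Akkermansia, against 133, 101 and 99.4 CPM with PBS. PBS 1 lay within the Akkermansia range and the other PBS libraries below it. The log2 fold change was 0.29 ± 0.11 (SE; 95% interval 0.06 to 0.52; edgeR adjusted p = 0.087) and 0.43 without PBS 1 (adjusted p = 0.00546). With all 6 libraries and no filter on low counts it also passed (adjusted p = 0.00263), and with scaling to the Cd3 genes it was 0.12 (adjusted p = 0.497).

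Il18rap, the accessory chain needed for IL-18 signalling, had 77.2, 61.1 and 60.9 CPM with Akkermansia, against 76.6, 46.1 and 28.2 CPM with PBS. It had the wider spread within PBS, where the coefficient of variation was 48.6%, against 17% for Il18r1. The log2 fold change was 0.40 ± 0.41 (SE; 95% interval -0.70 to 1.501; edgeR adjusted p = 0.593). The FPKM ratio of Il18rap to Il18r1 was 0.386, 0.338 and 0.322 with Akkermansia, against 0.412, 0.327 and 0.203 with PBS (exact permutation p = 0.8).

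Il18r1 and Il18rap are neighbours on chromosome 1, with Il1rl1 next to Il18r1 and Il1r1 separated from Il1rl1 by Il1rl2, in the RefSeq order of genes. Il12rb2 and Il23r are likewise neighbours on chromosome 6. Promoter windows of the IL-18 receptor pair are shown because the chains form 1 receptor, lie side by side and had the same highest and lowest library. The last trait is not particular to the pair, since Il12rb1, on chromosome 8, had the same highest and lowest library. Each window is 300 bases long (250 before the start site and 50 from it), from RefSeq in the build GRCm38.p6, which is older than the build of the counts. Il18r1 has 3 such windows, and the one shown, chr1:40465371-40465670 on the plus strand, is the one that holds a match. The window of Il18rap is chr1:40515112-40515411, also on the plus strand. Capitals mark the letters TGTGGT, a core motif of RUNX factors, or their reverse complement ACCACA.
Il18r1: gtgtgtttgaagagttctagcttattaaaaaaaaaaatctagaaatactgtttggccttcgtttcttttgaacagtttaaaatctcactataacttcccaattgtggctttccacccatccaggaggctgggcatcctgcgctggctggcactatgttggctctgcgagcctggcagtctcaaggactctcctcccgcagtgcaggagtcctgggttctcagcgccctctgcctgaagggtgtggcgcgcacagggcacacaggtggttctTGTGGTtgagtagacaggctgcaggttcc
Il18rap: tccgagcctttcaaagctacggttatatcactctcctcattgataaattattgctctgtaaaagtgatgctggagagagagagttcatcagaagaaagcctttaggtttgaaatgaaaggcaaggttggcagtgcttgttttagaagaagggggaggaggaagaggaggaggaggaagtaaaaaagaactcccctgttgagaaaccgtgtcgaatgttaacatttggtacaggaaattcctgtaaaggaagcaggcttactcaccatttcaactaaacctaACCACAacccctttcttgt

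Windows were found for 8 of the 10 members (not for Il12rb1 and Il27ra). Of their 12 windows, 3 held this motif (1 each of Il18r1, Il18rap and Il1rl1), as did 16.8% of all 32851 windows on either strand. The motif was picked after the sequences had been seen. A T-box core, TCACAC on either strand, was found in 1 of the 12, that of Il12rb2 (14.5% of all windows), and the STAT motif TTCNNNGAA, which reads the same on both strands, in 2 of the 12, of Il12rb2 and Il18r1 (8.3% of all windows). The ETS core CAGGAA on either strand was found in 5 of the 12, of Il18rap, Il1r1, Il1rl1 and Il6ra (30.6% of all windows). These matches describe the letters only.

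**Figure D4:**
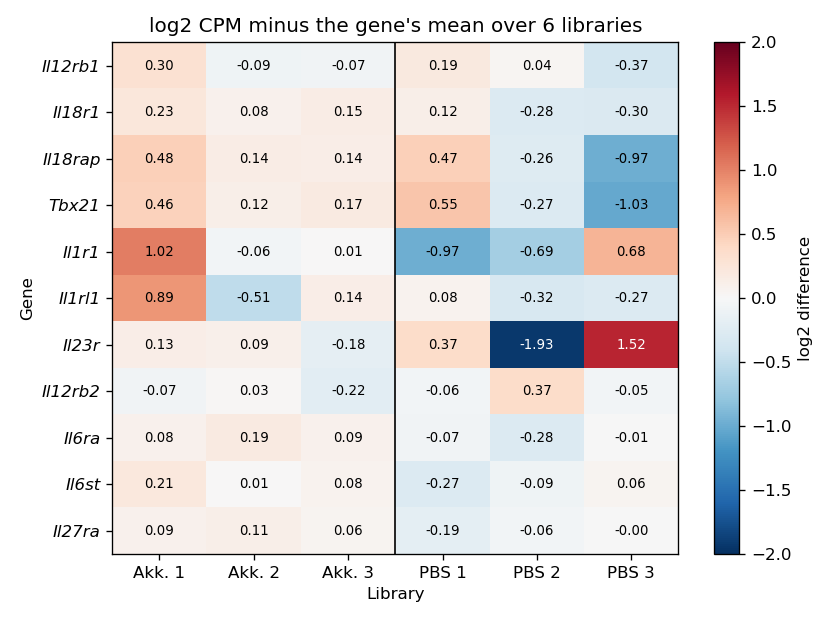
Log2 CPM of each gene minus its mean over the 6 libraries (columns, Akkermansia left of PBS), for the 10 receptor genes and for Tbx21, with red above and blue below the mean. Il18rap and Tbx21 are highest in the libraries numbered 1 and lowest in PBS 3, and Il1r1 is high in Akkermansia 1 and PBS 3 and low in PBS 1 and PBS 2.

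The Th1 regulator Tbx21, chosen after its values were seen, had 32.9, 25.9 and 27.0 CPM with Akkermansia, against 35.0, 19.8 and 11.7 CPM with PBS. Relative to their means over the libraries, PBS 1, PBS 2 and PBS 3 stood at 0.55, -0.27 and -1.03 (log2) for Tbx21 and at 0.47, -0.26 and -0.97 for Il18rap. Both genes were high in PBS 1 and low in PBS 3. Summed NK cell markers, which are genes of cells that bear the IL-18 receptor, stood at 70.7, 75.4 and 61.6 CPM in the same PBS libraries, with PBS 2 the highest. Their part in these values was not tested.

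Il1r1, the signalling receptor for IL-1, had 12.015, 5.67 and 5.96 CPM with Akkermansia, against 3.02, 3.68 and 9.50 CPM with PBS. Akkermansia 1 and PBS 3 were the highest in their groups, and the groups overlapped. The log2 fold change was 0.55 ± 0.54 (SE; 95% interval -0.77 to 1.86; edgeR adjusted p = 0.565). Without PBS 3 it was 1.24, past the threshold (adjusted p = 0.0384), and without Akkermansia 1 it was 0.11 (adjusted p = 0.922). PBS 3, the highest PBS library for Il1r1 and Il23r, also held 39 counts of the Th17 cytokine gene Il17a, against 5 in PBS 1 and 10 in PBS 2. In the Akkermansia group Il17a had 12, 18 and 10 counts, so its highest library there was not Akkermansia 1, where Il1r1 was highest. The summed neutrophil markers were 181, 119.8 and 85.4 CPM with Akkermansia, against 38.1, 21.5 and 62.9 CPM with PBS, and the highest library of each group was again Akkermansia 1 or PBS 3. Their part in the Il1r1 values was not tested.

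Il1rl1, which encodes the IL-33 receptor ST2, had 11.3, 4.27 and 6.69 CPM with Akkermansia, against 6.40, 4.86 and 5.03 CPM with PBS. Akkermansia 1 was above the rest, while Akkermansia 2 was the lowest library of all. The log2 fold change was 0.45 ± 0.31 (SE; 95% interval -0.24 to 1.14; edgeR adjusted p = 0.373). Its partner chain Il1rap, shared with the IL-1 receptor, had 16.7, 18.2 and 16.2 CPM with Akkermansia, against 16.4, 22.5 and 16.2 CPM with PBS, without passing (-0.11 ± 0.14, adjusted p = 0.67). Markers of mast cells and basophils, which also bear ST2, summed to 9.94 to 12.6 CPM with Akkermansia and to 6.24 to 8.4 CPM with PBS. None of their 4 tested members passed, and Akkermansia 1 had the highest sum. Regulatory T cell markers, which also mark cells with ST2, summed to 411 to 593 CPM with Akkermansia and to 656 to 755 CPM with PBS, with 1 of 5 lower (Tnfrsf18). Most of the difference in the sum came from Ctla4 (162 ± 48.5 CPM with Akkermansia, 324 ± 64.0 CPM with PBS; adjusted p = 0.0824), which did not pass. Foxp3, the defining marker, had 99.2 ± 15.1 CPM with Akkermansia and 86.8 ± 10.2 CPM with PBS, also without passing (adjusted p = 0.328). Their part in the Il1rl1 values was not tested.

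The genes nearest to a member in pattern were sought for the 3 members with the smallest p, among 13809 other genes of at least 1 CPM. The measure was the root mean square difference of log2 CPM over the 6 libraries, each gene centred on its own mean. Nearest to Il6ra were Map3k11, Rxrb and Pygb (differences of 0.0136, 0.0264 and 0.0288). Nearest to Il27ra were Phf8, Ptch1 and Ubap2l (0.0166, 0.0174 and 0.0178), and nearest to Il18r1 were Arl14ep, Zfp251 and Gm42868 (0.0632, 0.0635 and 0.0658). The measure takes in both the difference between the groups and that within them.

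Few ligands of these receptors were measured in the CD4+ T cell libraries. Of 11 IL-6, IL-12 and IL-27 family ligand genes 4 were tested, and Il6, Il12a, Il12b, Il23a and Il27 were among the 7 removed by the filter on low counts. Lif, a gp130 cytokine, was lower with Akkermansia (3.65 CPM, against 7.71 CPM with PBS; log2 fold change -1.07 ± 0.24, edgeR adjusted p = 0.0108), a call lost without Akkermansia 3 (adjusted p = 0.0574). Clcf1, another gp130 cytokine and the most abundant of this list in CPM, did not pass (0.24 ± 0.08, adjusted p = 0.0622). Ebi3, which encodes a subunit of IL-27, was tested and did not pass either (3.47 CPM with Akkermansia, 2.47 CPM with PBS, log2 fold change 0.49 ± 0.27, edgeR adjusted p = 0.254). Of 11 IL-1 family ligand and antagonist genes 5 were tested. Il1b was higher (7.03 CPM with Akkermansia, 4.39 CPM with PBS; 0.68 ± 0.21, adjusted p = 0.0418), a call lost without any 1 of the 6 libraries and with scaling to the Cd3 genes (adjusted p up to 0.156). Il18 did not pass (2.39 CPM with Akkermansia, 4.27 CPM with PBS; -0.83 ± 0.29, adjusted p = 0.0682), and Il33 had a single count in 1 PBS library and 0 in the others.

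Among the other receptors of the 2 families, 3 of 8 gp130 family genes and 4 of 6 IL-1 family genes were tested. Of these, 1 rose and 1 fell, where 15.6% of all tested genes were called in either direction. Csf3r, the granulocyte colony-stimulating factor receptor and a neutrophil marker, rose by 1.05 ± 0.19 (log2, SE; edgeR adjusted p = 0.00335), and was 1 of the 2 neutrophil markers that were higher, beside Camp. Il1r2, the IL-1 decoy receptor, fell by 1.05 ± 0.32 (1.95 CPM with Akkermansia, 4.04 CPM with PBS; adjusted p = 0.0424), a call lost without any single library except PBS 2, with limma-voom and on FPKM (adjusted p up to 0.145).

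The signalling genes behind the receptors were read against the 15.6% of all tested genes called in either direction. Of 8 genes for JAK kinases, STAT factors and gp130 adaptors, Tyk2, a kinase bound to the IL-12 receptor, was the 1 called, higher by 0.30 ± 0.08 (log2, SE; edgeR adjusted p = 0.0201), and the call was lost without Akkermansia 1, Akkermansia 2 or PBS 1 and with scaling to the Cd3 genes (adjusted p up to 0.459). Stat3 (-0.17 ± 0.08, adjusted p = 0.151) and Stat4 (0.18 ± 0.10, adjusted p = 0.245) did not pass. Of 13 MyD88 pathway genes 2 fell and 0 rose: Tollip, an inhibitor of IL-1 receptor signals, by 0.58 ± 0.08 (adjusted p = 0.000395) and Tab3, an adaptor of the kinase TAK1, by 0.41 ± 0.09 (adjusted p = 0.00864), whose call was lost without Akkermansia 2 (0.0567). Their median was 0.003. Of 9 feedback and shedding genes Ptpn6, the phosphatase SHP-1, rose, with 308 ± 12.1 CPM with Akkermansia and 193 ± 5.58 CPM with PBS (0.68 ± 0.07, adjusted p = 6.1e-05); B cells also express it. Socs3, the feedback inhibitor of gp130, fell by 0.61 ± 0.15 (157 ± 16.5 CPM with Akkermansia, 239 ± 47.4 CPM with PBS, adjusted p = 0.0365), a call lost without any single library except PBS 2 and on FPKM (adjusted p up to 0.117). The sheddases Adam10 and Adam17, which can release soluble IL-6 receptor, had log2 fold changes of -0.01 and 0.14 without passing (adjusted p = 0.916 and 0.216).

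Genes known to respond to these cytokines held several that fell. Of all tested genes 8.28% were called lower and 7.32% higher. Of 14 IL-6 and STAT3 target genes 6 fell and 0 rose, with a median log2 fold change of -0.39. Il17f, a Th17 cytokine gene, had 4, 4 and 3 counts with Akkermansia, against 15, 32 and 51 with PBS (edgeR adjusted p = 0.00357), Batf, a Th17 transcription factor, fell by 0.55 ± 0.12 (adjusted p = 0.00748), and Pim1, a STAT-induced kinase, fell by 0.44 ± 0.10 (adjusted p = 0.0117). The falls numbered 2 without Akkermansia 2 or Akkermansia 3 and 4 without Akkermansia 1 or PBS 3. Pim1 was not called without Akkermansia 2 or Akkermansia 3 or on FPKM (adjusted p up to 0.0593). Of 10 tested IL-18 and IL-33 responsive genes 5 fell and 0 rose, with a median of -0.69. Among the 5 were the NF-kB inhibitors Nfkbia (302 ± 7.97 CPM with Akkermansia, 549 ± 68.6 CPM with PBS, edgeR adjusted p = 7.7e-05) and Tnfaip3 (-0.96, adjusted p = 0.000282). Nfkbiz fell too (-0.81, edgeR adjusted p = 0.000127). In the same list Ifng (-0.57), Tnf (-0.39), Il2ra (-0.29), Gata3 (0.09) and Il4 (0.29) did not pass (edgeR adjusted p from 0.181 to 0.672). Of 10 tested IL-12 and IL-27 target genes Il10 (-1.28 ± 0.25, adjusted p = 0.00539) and Prdm1 (-0.59 ± 0.17, adjusted p = 0.0325) fell and 0 rose, and of the fits that left out 1 library Prdm1 was called only without PBS 3 (adjusted p up to 0.13). These genes also respond to other signals, and the difference between these counts and that of the receptors was not tested.

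**Figure D5:**
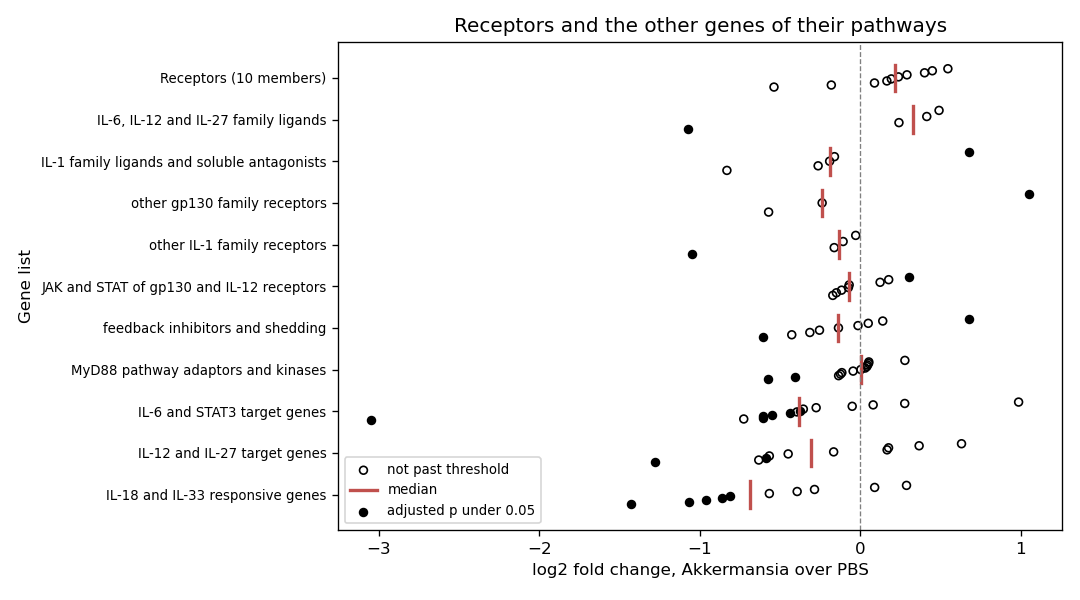
Log2 fold change, Akkermansia over PBS (x axis), of the 10 receptor genes and of the tested genes of the 10 pathway lists, filled where the edgeR adjusted p was under 0.05, with a red bar at each list's median. No receptor is filled, while the target lists of IL-6 and of IL-18 and IL-33 hold 6 and 5 filled points, all below 0. Of all tested genes 8.28% were called lower.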

How the data were processed

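The authors deposited raw counts per gene for 6 libraries, and FPKM values that scale for gene length and depth, given to 2 decimals; in 5248 genes whose lowest library had 500 counts or more, these FPKM followed from the counts and a fixed length within 0.519% after 1 factor per library. The build named is GRCm39 (per the submitters' processing notes). No aligner, counter, annotation or strand setting is named in the sources used here, so reads of overlapping genes on opposite strands cannot be told apart. Groups were taken from the library titles.

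Counts were filtered by filterByExpr (minimum count 10, minimum total 15), scaled by TMM and compared by edgeR 4.0.16 (R 4.3.3), robust quasi-likelihood F test, two-sided, no covariate, adjusted over 15138 genes, threshold 0.05. CPM use TMM library sizes, and floors cover counting error only. Intervals of 95% use the fit's SE and degrees of freedom. Ratios of FPKM + 0.01 were compared by exact permutation over 20 splits. Alternatives were DESeq2 1.42.0, limma 3.58.1 (voom, and trend on log2(FPKM + 1) and log2(FPKM + 0.1)), RLE, library totals, Cd3 scaling, no filter, at least 1 CPM in 3 libraries, a replicate block, and leaving out each library in turn.

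The members and the 21 lists (10 of pathways, 11 of markers) were chosen with earlier results of these data known, as was the rule for naming genes: all members, up to 3 called genes per list by smallest p, ligands and partner chains, and the nearest genes in pattern. All 182 list entries were found, 4 under an older symbol. Libraries of 1 group differed from each other by 4.47 to 19.9 times what sampling gives, so none was counted as a repeat. Values of some genes are not reported here.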

Additional observations from a re-analysis of the deposited data

How the results depend on the processing

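Receptor genes called lower numbered 0 under all 16 alternatives. Those called higher numbered 0 in the main edgeR fit, and 1 with DESeq2, RLE size factors, library totals or the replicate block. They numbered 3 with no filter on low counts and 0 to 3 without single libraries. With limma-voom, Cd3 scaling, at least 1 CPM in 3 libraries or FPKM they numbered 0. Genes called in either direction numbered 2388 to 2538 of 15138 in the fits that called 1 member with all libraries. With no filter they numbered 3006 of 28006. Il6ra passed with DESeq2 (log2 fold change 0.2431, adjusted p = 0.0348), RLE size factors (0.2432, 0.0489), library totals (0.2448, 0.0429) and no filter (0.2533, 0.00821). With no filter Il6st (0.2086, adjusted p = 0.0414) and Il18r1 (0.306, 0.00263) passed too. With the replicate number as a block Il18r1 passed (0.302, adjusted p = 0.0201), and genes called numbered 1205 higher and 1333 lower, against 1108 and 1253 without it. Same-numbered libraries share a number and the cell name in their descriptions, but no stated animal, litter or day. Their deviations correlated at 0.0976, 0.0885 and 0.0374, each library's highest being with its own number, so the pairing is not settled. Socs3 was not called with the block.

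With scaling to the Cd3 genes, genes higher numbered 346 and lower 2737, Il12rb1 was -0.0804 and Il27ra -0.0124. On log2(FPKM + 1) and log2(FPKM + 0.1) genes higher numbered 798 and 774 and lower 850 and 840; with no filter 1526 and 1480. Without single libraries, genes higher ran from 519 to 1287 and lower from 623 to 1413. The log2 fold changes then ran from 0.1625 to 0.2916 for Il6ra, 0.1044 to 0.2772 for Il6st, -0.0578 to 0.2036 for Il12rb1, -0.2634 to -0.026 for Il12rb2, -1.02 to 0.367 for Il23r, 0.1069 to 0.2082 for Il27ra, 0.2181 to 0.4315 for Il18r1, 0.1135 to 0.8289 for Il18rap, 0.11 to 1.239 for Il1r1 and 0.0175 to 0.726 for Il1rl1. The log2 ratio differences ran from -0.0414 to 0.1568 for Il6ra to Il6st, -1.031 to 0.8123 for Il23r to Il12rb1, -0.0862 to 0.0234 for Il27ra to Il6st and -0.0796 to 0.4319 for Il18rap to Il18r1. Il1rap ran from -0.1934 to 0.0625, and Il17a from -0.8101 to 0.8669, with 0.0951 by limma-voom and 0.0669 on log2(FPKM + 0.1). The cause of these changes was not tested. Il23r could not be tested at a minimum of 1 CPM in 3 libraries.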
